A study of Pan troglodytes with 50 samples.

Results

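The HAR reporter library was read in chimpanzee neural progenitors of stage N2, grown from induced pluripotent stem cells, and the RNA of each test sequence was compared with its DNA. The samples were those titled as N2 RNA or N2 DNA of the HAR library, without the HAR control and permutation libraries, which gave 12 of the 50 samples of the series. They fall into 4 groups of 3, which are Pt2A N2 RNA, Pt2A N2 DNA, Pt5C N2 RNA and Pt5C N2 DNA. Pt2A and Pt5C are the names of the stem cell lines, each from 1 chimpanzee, and the labels call the N2 cells neural progenitors and give telencephalon as their description. All groups carry the same lentiviral library. The virus integrates at many places per cell, RNA and DNA were taken from the same lysate 4 days after infection, and the labels describe 3 separately infected cultures. A p-value over cultures therefore measures the spread between infections of a line, and neither the spread between differentiations nor that between animals.

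Human accelerated regions (HARs) are sequences that stayed nearly the same over most of mammalian evolution and then gained many substitutions on the human lineage. Most lie outside genes, and many are studied as candidate enhancers of the developing brain. In a lentiviral massively parallel reporter assay a candidate enhancer is placed beside a minimal promoter that drives a transcript with a short random barcode, the virus inserts the construct into the genome of the cells, and barcodes are counted in the messenger RNA and in the genomic DNA. RNA per DNA copy is the regulatory activity of the candidate in those cells. A value above that of inert sequences is the mark of an enhancer in this assay, and a value below it can mark a repressive sequence.

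The library held 2440 elements, each 170 or 171 bases long where coordinates give a length. There were 1006 human and 996 chimpanzee alleles of 714 HARs, in which long HARs were cut into overlapping tiles, and 173 variants of 4 HARs that mix human and chimpanzee bases. The controls were 145 elements named as positive (124 H3K27ac, 10 EnhancerFinder, 9 ENCODE and 2 short-named, a VISTA brain enhancer among them) and 120 named as negative (84 H3K27me3, 34 ENCODE and 2 short-named). H3K27ac is a histone mark of active enhancers and promoters, and H3K27me3 is the mark of Polycomb repression. Each element was carried by 22 to 100 barcodes (median 84), and 93.9% of the 205318 barcodes were counted in all 12 libraries. Total counts ran from 9078893 to 10350837 in Pt2A DNA, from 22134610 to 41867492 in Pt2A RNA, from 14415068 to 16823119 in Pt5C DNA and from 13946232 to 22765532 in Pt5C RNA. A median barcode had 27 to 48 counts in a DNA library and 38 to 112 in an RNA library.

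The barcodes are the sequences that were counted, and those with the most DNA show what an activity value rests on. For tile 1 of the human allele of 2xHAR.548, the third highest HAR element by the mean over cultures, they were, 5′ to 3′ and with no part marked by capitals:
2xHAR.548 barcode 1: ttctgattccgagtt
2xHAR.548 barcode 2: cctgccgtccgagtt
2xHAR.548 barcode 3: caattagattagcgc
Summed over the 3 cultures of Pt2A, barcode 1 had 606 DNA and 4246 RNA counts, barcode 2 had 579 and 3425, and barcode 3 had 578 and 2876. In Pt5C the same barcodes had 1005 and 2819, 907 and 2162, and 905 and 1687. The RNA libraries of Pt2A were the deeper ones, so these raw ratios are comparable only after the zero point set by the negative controls.

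Activity is given as log2 of RNA over DNA, with counts summed over the barcodes of an element, a pseudocount of 0.5 in values per culture, and 0 at the median of the 120 negative controls. A call needed an adjusted p under 0.05 in the same direction in a pair of tests. The first was the quasi-likelihood test of edgeR over cultures, and the second used the spread between the barcodes of an element, because every culture received the same barcoded copies. The median error of an element was 0.026 (Pt2A) and 0.025 (Pt5C) by the first test and 0.047 and 0.048 by the second.

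Before the results, 4 of the 6 cultures have to be set apart. Over the 2440 elements, log2 DNA of Pt2A N2 deviated from the mean N3 DNA of its line with an SD of 0.17, 0.22 and 0.17 in replicates 1 to 3. That of Pt5C N2 deviated by 0.053, 0.053 and 0.11, and single N3 DNA libraries from the others of their line by 0.043 to 0.050. The N3 cells are glial progenitors of the same lines with the same library, so their DNA offers another denominator. Counts of calls below are therefore also given over the N3 DNA of the line, which leaves the N2 RNA as it was. In some named elements the RNA of Pt5C replicate 3 departed from the others. The human allele of HAR156 had RNA of 2009, 1980 and 1278 (counts scaled to the same library total) and DNA of 716.5, 708.6 and 696.5. For the human allele of 2xHAR.279 RNA was 934.6, 928.6 and 1209, and DNA 749.6, 756.5 and 753.0. Such departures remain over N3 DNA. Without Pt5C N2 replicate 3 the fitted Pt5C value moved by over 1.5 times in 17 of the 51 elements named here, and for those whose Pt5C value was called it is given beside them. The HAR control library, read in 3 other cultures of Pt2A N2, holds all 2440 elements and 202032 of the same barcodes. Its values are set beside most of the named elements. Across elements, its activity correlated with the DNA deviation at r = 0.49, 0.51 and 0.49 for Pt2A N2 replicates 1 to 3. For Pt5C N2 r was 0.34, 0.34 and 0.53, and for single N3 DNA libraries −0.044 to 0.081. Its correlation with activity over N2 DNA was −0.077, −0.18 and −0.040 for Pt2A, and 0.84, 0.83 and 0.49 for Pt5C. Over N3 DNA it was 0.57, 0.58 and 0.59, and 0.86, 0.86 and 0.77. The cause was not tested.

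In Pt2A N2, edgeR alone called 669 elements higher and 827 lower than the negative controls (27.4% and 33.9% of 2440), and for Pt5C N2 776 higher and 660 lower (31.8% and 27%). The barcode test alone gave 312 and 545 in Pt2A (12.8% and 22.3%) and 418 and 301 in Pt5C (17.1% and 12.3%). With the barcode test required as well, 311 were higher and 545 lower in Pt2A (12.7% and 22.3%), and 416 and 300 in Pt5C (17.0% and 12.3%). In both lines 166 elements were called higher (6.80%) and 63 lower (2.58%). With N3 DNA as denominator edgeR called 495 and 753 in Pt2A (20.3% and 30.9%) and 869 and 835 in Pt5C (35.6% and 34.2%). Both tests together then called 236 and 242 in Pt2A (9.67% and 9.92%), 641 and 489 in Pt5C (26.3% and 20.0%), and 197 (8.07%) and 174 (7.13%) in both lines, of which 97 and 28 were among the 166 and 63. Most activities were small. With edgeR's test against a change of 1.2-fold, 40 elements were higher in Pt2A (1.64%) and 124 lower (5.08%), and 50 were higher in Pt5C (2.05%). No element was lower by that test in Pt5C, and 0 were at an unadjusted p under 0.05, although 660 were lower by edgeR at any size and 301 by the barcode test.

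Among the elements called higher in both lines, 140 were HAR elements, with 58 human alleles, 56 chimpanzee alleles and 26 variants, and they came from 76 of the 714 HARs. Their mean activity over 6 cultures ran from 0.10 to 1.06 (median 0.24). Among those called lower in both lines, 60 were HAR elements of 29 HARs, with 19 human alleles, 17 chimpanzee alleles and 24 variants, and a mean from −0.37 to −0.087 (median −0.13). In 30 HARs at least 2 alleles or tiles were higher in both lines, and in 16 HARs with 2 or more elements every one was. The latter were 2xHAR.9, 2xHAR.53, 2xHAR.62, 2xHAR.149, 2xHAR.152, 2xHAR.176, 2xHAR.190, 2xHAR.238, 2xHAR.254, 2xHAR.279, 2xHAR.403, 2xHAR.407, 2xHAR.561, HAR30, HAR156 and HAR170. A single HAR, 2xHAR.20, had elements called higher and others called lower. Over N3 DNA, 78 of the 140 higher HAR elements (42 HARs) and 26 of the 60 lower ones (16 HARs) were called again in both lines.

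The barcode test was part of each call, so the shares of barcodes that follow describe the called elements and support nothing. Of the barcodes of a HAR element called higher in both lines, a median of 76.5% lay above the median barcode of the negative controls in Pt2A, and 75.8% in Pt5C. For HAR elements called lower in both lines it was 40.1% and 36.7%, and for the negative controls themselves 51.9% and 48.9%. The SD between barcodes of 1 element had a median of 0.39 in Pt2A and 0.40 in Pt5C, so single barcodes varied by more than most elements differed from 0.

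The question of which classes of sequence are active was answered by the median activity of each class in each culture. H3K27ac positive controls lay above the negative controls in 6 of 6 cultures, by 0.025 ± 0.0053 (SD, n = 6 cultures). ENCODE positive controls did so by 0.058 ± 0.048 and the 2 short-named positive controls by 0.10 ± 0.075, each in 6 of 6. HAR variants lay below in 6 of 6, by −0.040 ± 0.024. Of the 173 variants 123 belong to 1 HAR, 2xHAR.142, so this median is mainly that of 1 HAR. Variants of the other HARs had higher medians in both lines. Human alleles (0.0064 ± 0.017) and chimpanzee alleles (0.0068 ± 0.016) were above in 3 cultures and below in 3, and EnhancerFinder positive controls (0.012 ± 0.021) above in 5. None of the 7 classes passed after adjustment: by the exact two-sided sign-flip permutation test the classes with 1 sign in all cultures had p = 0.03125, the smallest that 6 cultures allow, and adjusted p = 0.0547. By line the medians were −0.0047 ± 0.0087 for human alleles in Pt2A and 0.017 ± 0.017 in Pt5C (SD, n = 3 each), where 3 cultures cannot pass the threshold. With class means in place of medians the adjusted p was 0.0438 for human and chimpanzee alleles and for the H3K27ac, ENCODE and short-named positive controls. The mean of HAR variants then lay above the negative controls, by 0.0069 (adjusted p = 0.688, same permutation test).

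**Figure D1:**
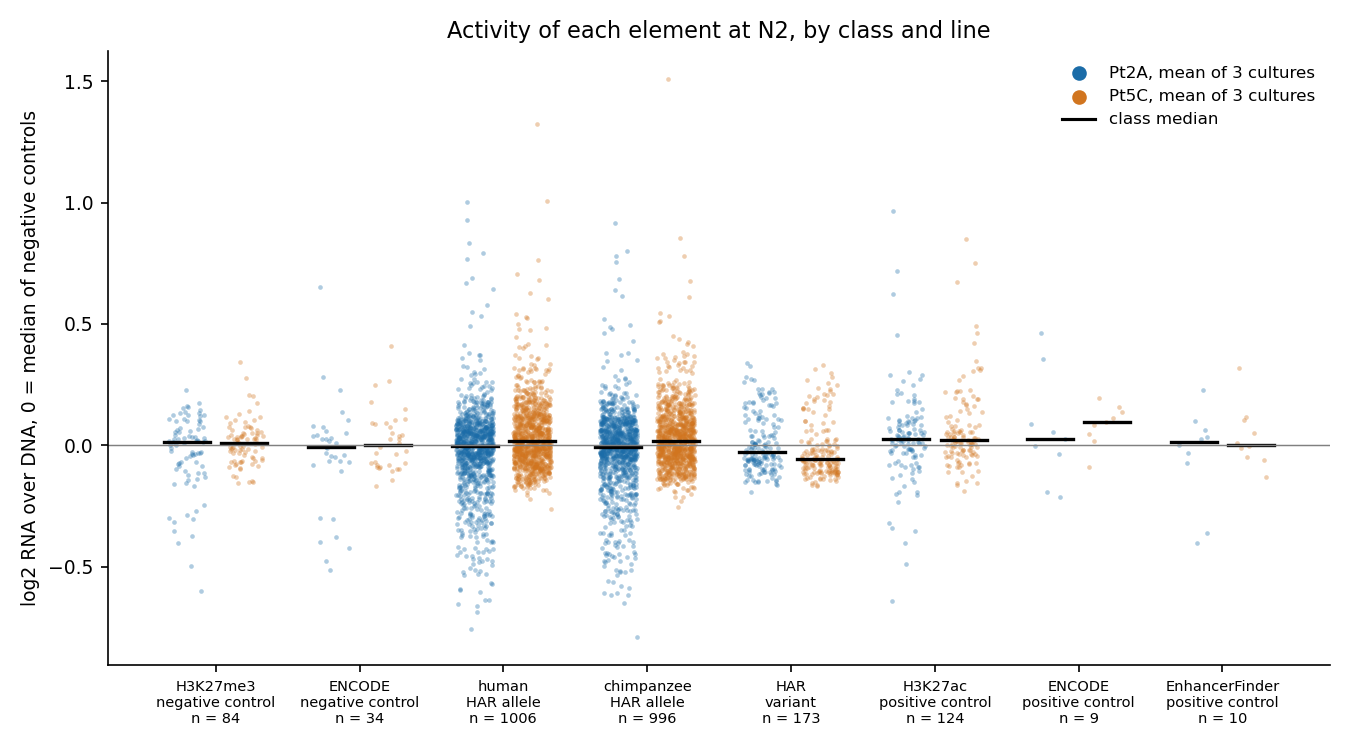
Activity of each element (vertical axis, log2 RNA over DNA with 0 at the median of the negative controls) in Pt2A (blue) and Pt5C (orange) by class, 1 point per element as the mean of 3 cultures and a black line at the class median. The medians of the 8 classes drawn lie between −0.057 and 0.095, while single HAR alleles reach 1.00 in Pt2A and 1.51 in Pt5C, and the low tail is longer in Pt2A in the negative controls as well as in the HAR alleles.

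The spread within classes was wider than the differences between them. The SD between negative controls was 0.18 in Pt2A and 0.10 in Pt5C, and that between HAR alleles 0.18 and 0.14. Over N3 DNA the SD of the negative controls was 0.11 in Pt2A and 0.13 in Pt5C. Of the negative controls 9.17% were called higher and 24.2% lower in Pt2A by both tests, and 10.0% and 10.0% in Pt5C, beside the 12.7% and 22.3%, and 17.0% and 12.3%, of all elements. Of human alleles 113 were called higher in Pt2A and 186 in Pt5C, of chimpanzee alleles 116 and 159, and of H3K27ac positive controls 26 in each. With N3 DNA, 98 and 286 human alleles, 89 and 271 chimpanzee alleles and 22 and 34 H3K27ac positive controls were called higher. The negative controls then had 12 higher and 9 lower in Pt2A (10.0% and 7.50%) and 19 and 22 in Pt5C (15.8% and 18.3%). In both lines 5.77% of human alleles, 5.62% of chimpanzee alleles, 12.9% of H3K27ac positive controls and 4.17% of negative controls were higher, against 6.80% of all elements, and no difference between these shares was tested. Above the central 95% of the negative controls in all 3 cultures of a line lay 55 of 2002 HAR alleles in Pt2A and 54 in Pt5C, and below it 30 and 9. Of all 2440 elements 75 and 64 lay above it and 33 and 9 below. Of the 145 positive controls 12 and 8 lay above it and 1 and 0 below. No difference between these shares was tested.

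The highest HAR element was the chimpanzee allele of HAR156 (chromosome 8, 116791662 to 116791832, GRCh37, 1-based as all positions here). Its activity was 0.59, 0.64 and 0.62 in the cultures of Pt2A and 1.76, 1.73 and 1.05 in those of Pt5C. Its RNA was 1141 to 1166 CPM (counts scaled to the same library total) in Pt2A and 2661, 2596 and 1629 in Pt5C, while its DNA stayed between 753.7 and 818.9 in all 6. The lines do not overlap, and replicate 3 of Pt5C lay nearest to Pt2A. Adjusted p was 2.29e-06 and 1.81e-13 (edgeR), and the activity 0.61 and 1.54, with errors of 0.093 and 0.092. The human allele at the same position was nearly as high, at 0.58 ± 0.030 in Pt2A and 1.32 ± 0.37 in Pt5C (SD, n = 3 each). In the HAR control library the alleles reached 2.09 ± 0.045 and 1.90 ± 0.019.

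Tile 1 of 2xHAR.548 (chromosome 3, 70655294 to 70655464) followed. This HAR lies between MITF and FOXP1, of which the latter encodes a transcription factor of the developing brain. The human allele was at 0.73, 0.77 and 0.80 in Pt2A and 1.19, 1.15 and 0.68 in Pt5C, and 76 of 79 barcodes in Pt2A and 77 of 79 in Pt5C lay above the median barcode of the negative controls. The chimpanzee allele was at 0.29, 0.26 and 0.31 in Pt2A, below every culture of the human allele, and at 0.97, 1.03 and 0.57 in Pt5C. The human allele was the higher one within each of the 6 cultures, although in Pt5C the ranges of the alleles overlap. Both kept their calls over N3 DNA in both lines, with 0.73 and 1.04 for human and 0.26 and 0.81 for chimpanzee. The HAR control library gave 2.04 ± 0.018 and 1.33 ± 0.013.

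Tile 1 of the chimpanzee allele of 2xHAR.49 (chromosome 2, 66913929 to 66914099) was at 0.50 ± 0.051 in Pt2A and 0.78 ± 0.20 in Pt5C, and 0.98 ± 0.026 in the HAR control library. Tile 1 of the human allele of 2xHAR.127 (chromosome 3, 76414558 to 76414728) was at 0.69 ± 0.038 and 0.53 ± 0.15, with 1.02 ± 0.073 in the control library. These elements and those of HAR156 and 2xHAR.548 were thus high in 3 sets of cultures. Their strongest barcode held 5.12% to 7.70% of their RNA, and removal of it moved no activity by more than 0.05.

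The other 6 of the 12 highest came from 3 HARs and had another pattern. The human allele of 2xHAR.279 (chromosome 17, 73753546 to 73753716) was the most active element of Pt2A, at 1.04, 0.96 and 1.00, and stood at 0.37, 0.34 and 0.71 in Pt5C. Its RNA was 1463 to 1551 CPM in Pt2A and 928.6 to 1209 in Pt5C, with DNA between 746.9 and 766.5 in all 6 cultures. In the HAR control library it was at 0.12 ± 0.014. The chimpanzee allele of 2xHAR.279 went from 0.76 ± 0.057 to 0.42 ± 0.16, with 0.11 ± 0.013 in the control library.

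In 2xHAR.403 (chromosome 16) the human tiles, which cover almost the same bases, and the chimpanzee sequence gave nearly the same values. Human tile 2 (73865069 to 73865239) was at 0.93 ± 0.027 in Pt2A and 0.36 ± 0.18 in Pt5C, human tile 1 (73865066 to 73865236) at 0.83 ± 0.012 and 0.33 ± 0.19, and the chimpanzee allele at 0.80 ± 0.033 and 0.34 ± 0.17. Their control library values were 0.058 ± 0.044, 0.087 ± 0.054 and 0.033 ± 0.039. Tile 2 of the chimpanzee allele of 2xHAR.267 (chromosome 6, 50502755 to 50502925) was at 0.92 ± 0.029 and 0.34 ± 0.20, and at −0.20 ± 0.065 in the control library. Without Pt5C replicate 3 its fitted Pt5C activity was 0.23 in place of 0.34. In each of these 6 elements the third culture of Pt5C was the highest of its line, while in the elements of HAR156, 2xHAR.548, 2xHAR.49 and 2xHAR.127 it was the lowest. All 12 were called by both tests in both lines over N3 DNA too.

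**Figure D2:**
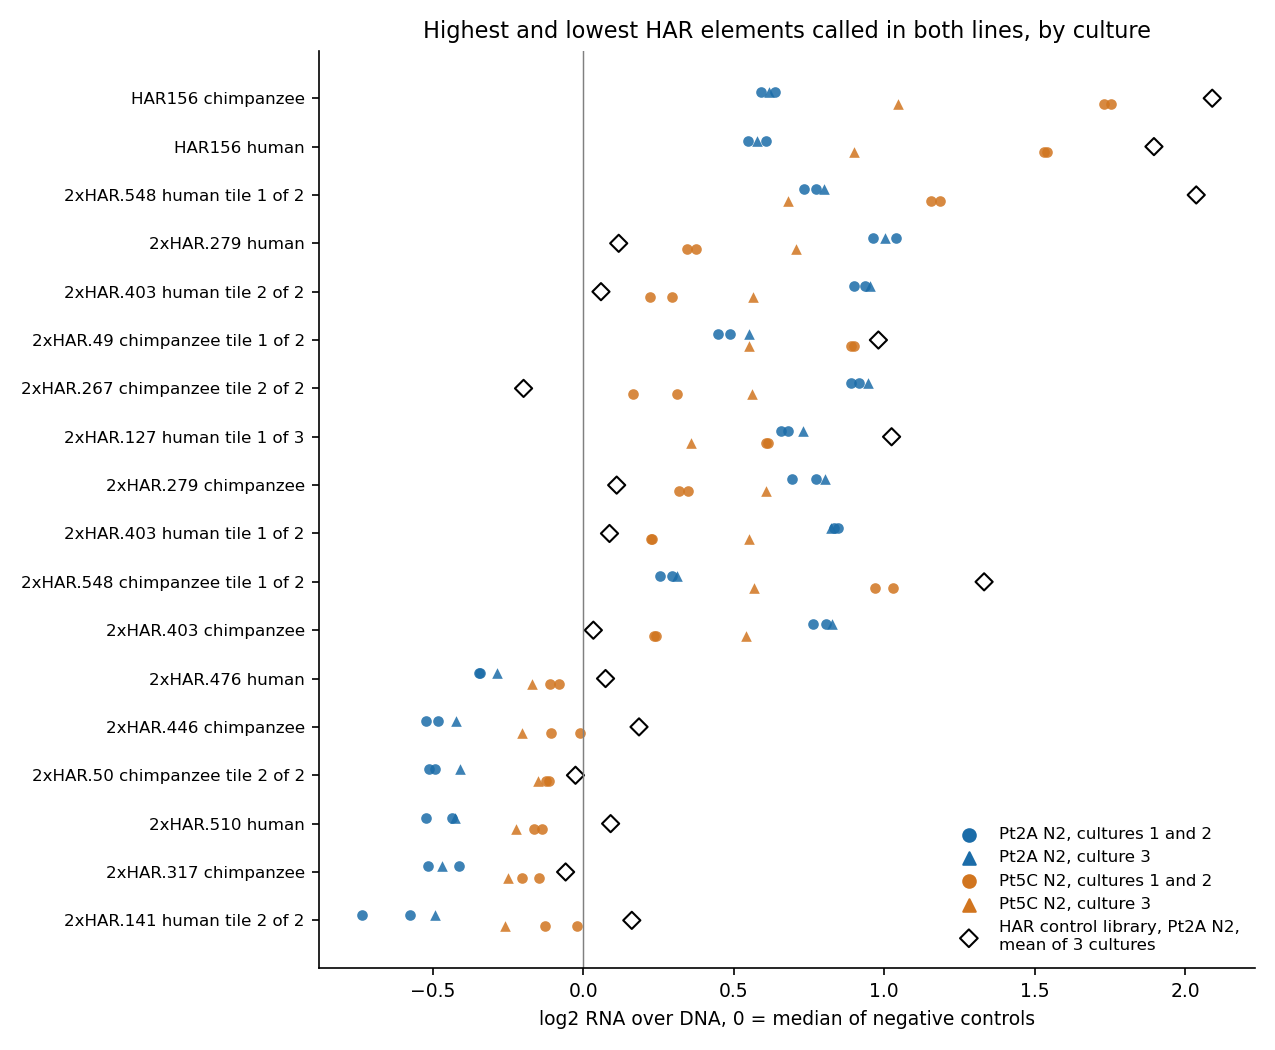
Activity (horizontal axis, log2 RNA over DNA) of the HAR elements called in both lines that had the 12 largest and 6 smallest means, with a point for each culture of Pt2A (blue) and Pt5C (orange), triangles for the third cultures, and open diamonds for the mean of 3 cultures of the HAR control library. Diamonds lie to the right of the points in HAR156 and 2xHAR.548 and near 0 in 2xHAR.279 and 2xHAR.403, and in 2xHAR.141 and 2xHAR.446 they lie above 0 although the points lie below it.

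The 6 lowest HAR elements were low mainly in Pt2A. Tile 2 of the human allele of 2xHAR.141 (chromosome 6, 31238042 to 31238212) was at −0.58, −0.74 and −0.49 in Pt2A and at −0.020, −0.13 and −0.26 in Pt5C. Its RNA hardly moved, with 385.8 to 402.6 CPM in Pt2A and 360.4 to 384.8 in Pt5C. Its DNA was 592.2, 647.5 and 580.2 CPM in the Pt2A cultures and 398.1, 407.4 and 468.4 CPM in those of Pt5C, beside means of 399.9 and 384.5 CPM in the N3 DNA of the lines. Over N3 DNA the activity was −0.011 in Pt2A and −0.012 in Pt5C, and neither was called. Without Pt5C replicate 3 the fitted Pt5C value fell in size from −0.15 to −0.081 and was still called by edgeR (adjusted p = 0.0150).

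The same held for the chimpanzee alleles of 2xHAR.446 and of tile 2 of 2xHAR.50, and for the human allele of 2xHAR.510. Over N2 DNA they were at −0.48 ± 0.049, −0.47 ± 0.055 and −0.46 ± 0.053 in Pt2A and at −0.11 ± 0.096, −0.13 ± 0.020 and −0.18 ± 0.044 in Pt5C. Over N3 DNA they were at 0.0016, −0.023 and 0.082 in Pt2A, and none was called by both tests in either line. Without Pt5C replicate 3 the Pt5C value of 2xHAR.446 was −0.067 in place of −0.12 and was no longer called by edgeR (adjusted p = 0.183). The chimpanzee allele of 2xHAR.317 (chromosome 15, 91009515 to 91009685) kept its call in Pt5C over N3 DNA, at −0.16 in place of −0.21, and lost it in Pt2A, at −0.064 in place of −0.47. The human allele of 2xHAR.476 (chromosome 13, 60159459 to 60159629) did likewise, with −0.092 in Pt5C and −0.10 in Pt2A, the latter called by edgeR (adjusted p = 0.00156) and not by the barcode test (adjusted p = 0.0855). In the HAR control library the 6 elements lay between −0.059 and 0.18.

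Elements chosen for the largest change with the denominator in Pt2A show the same in both directions, as a description. The human and chimpanzee alleles of 2xHAR.118 (chromosome 13, 39357176 to 39357346) went from −0.77 and −0.80 over N2 DNA to 0.099 and 0.14 over N3 DNA, and tile 2 of the chimpanzee allele of 2xHAR.144 from −0.63 to 0.17. Their control library values were 0.41, 0.50 and 0.60. In the other direction, human tile 2 of 2xHAR.424 stood at 0.20 over N2 DNA and −0.022 over N3 DNA. Human tile 3 of 2xHAR.48 was at 0.11 and −0.12, and the chimpanzee allele of 2xHAR.494 at 0.13 and −0.10. Control library values for 2xHAR.424, 2xHAR.48 and 2xHAR.494 were 0.13, 0.17 and −0.0079. Among these extremes the shift was larger in elements that were lower over N2 DNA than in those that were higher.

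Among the controls, H3K27ac positive control 11 (chromosome 11, 133907201 to 133907371) was highest, at 0.97 ± 0.037 in Pt2A and 0.75 ± 0.046 in Pt5C. H3K27ac positive control 130 (chromosome 10, 98900001 to 98900171) was at 0.63 ± 0.062 and 0.67 ± 0.027, and H3K27ac positive control 107 (chromosome 11, 44009051 to 44009221) at 0.72 ± 0.023 and 0.32 ± 0.10. The lowest were H3K27ac positive control 101, at −0.64 ± 0.13 in Pt2A and 0.082 ± 0.17 in Pt5C, and EnhancerFinder positive control 2, at −0.36 ± 0.052 and −0.011 ± 0.076. With N3 DNA these stood at 0.11 and −0.087 in Pt2A, and at 0.25 and 0.015 in Pt5C, where control 101 was called higher. In the HAR control library they were at 0.53 ± 0.044 and 0.28 ± 0.036. In the permutation library, also read in Pt2A N2, they were at −0.65 ± 0.28 and −0.45 ± 0.14. H3K27ac positive controls 11, 130 and 107 were at 1.49 ± 0.013, 1.26 ± 0.022 and 0.41 ± 0.023 in the HAR control library. Their permutation library values were 0.74 ± 0.11, 0.30 ± 0.15 and 0.63 ± 0.053.

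ENCODE negative control 8 reached the range of the leading HAR elements in Pt2A, and ENCODE negative control 18 did so in Pt5C. ENCODE negative control 8 (chromosome 2, 238336155 to 238336325) was at 0.70, 0.60 and 0.66 in Pt2A and 0.092, 0.088 and 0.36 in Pt5C. In the permutation library, read in other Pt2A N2 libraries with 0 shared barcodes, it was at 0.52 ± 0.088, and in the HAR control library at −0.11 ± 0.035. Its fitted Pt5C value was 0.18, and 0.086 without replicate 3. ENCODE negative control 18 was at 0.28 ± 0.030 and 0.41 ± 0.14, and N1 H3K27me3 negative control 16 at 0.23 ± 0.052 and 0.28 ± 0.083. Both were called in both lines. In the HAR control library they were at 0.77 ± 0.055 and 0.18 ± 0.016, and in the permutation library at 0.21 ± 0.033 and 0.21 ± 0.068. With N3 DNA control 16 lost its Pt2A call (0.14, adjusted p of the barcode test 0.127). N1 H3K27me3 negative control 27 was the lowest, at −0.60 ± 0.10 and −0.15 ± 0.095, and ENCODE negative control 20 stood at −0.48 ± 0.13 and −0.080 ± 0.11. Their permutation library values were −0.58 ± 0.20 and −0.59 ± 0.12, their HAR control library values −0.10 ± 0.0058 and 0.27 ± 0.069, and their Pt2A values over N3 DNA −0.12 and 0.051, with no call. Without Pt5C replicate 3 the fitted Pt5C value of control 27 was −0.095 in place of −0.16. The zero point is the median of such controls, and an element called higher is higher than that median, not higher than every negative control.

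The variants show how far near-identical sequences with separate barcodes repeat each other. The 123 variants of 2xHAR.142 had a median of −0.057 in Pt2A and −0.080 in Pt5C, with an SD between variants of 0.057 and 0.046, beside a median barcode error of 0.043 and 0.042. None was called higher. In Pt2A 33 of the 123 were called lower, not far from the 22.3% of all elements lower there. In Pt5C 46 were called lower, beside 12.3% of all elements, and in both lines 24, beside 2.58%. By edgeR alone 4 and 1 of them were higher. The 30 variants of 2xHAR.238 had medians of 0.18 and 0.20 with an SD of 0.063 and 0.062. Of these 30, 26 were called higher in both lines, beside 6.80% of all elements. Variants of 1 HAR share nearly all their bases, so these 24 and 26 calls count for 1 HAR each.

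Variants of 2xHAR.164 (14) and 2xHAR.170 (6) were above 0 in Pt2A, with medians of 0.12 and 0.085, and near 0 in Pt5C, with 0.026 and 0.021. By both tests 10 and 2 were called higher in Pt2A, beside 12.7% of all elements. In Pt5C 0 were, beside 17.0% of all elements, and there edgeR alone, DESeq2 and an unadjusted edgeR p under 0.05 each gave 5 and 1. With the other denominator the Pt2A medians were −0.045 and −0.030, with 0 and 1 calls. For 2xHAR.142 the medians over N3 DNA were −0.059 and −0.10, with 10 variants lower in both lines, and for 2xHAR.238 0.079 and 0.15, with 9 higher in both lines. In the HAR control library all 123 variants of 2xHAR.142 were called lower (34.5% of all elements were) and all 30 of 2xHAR.238 higher (51.7%). There 3 of the 14 variants of 2xHAR.164 were higher and 3 lower, with a median of 0.0015. Of the 6 variants of 2xHAR.170, 5 were called higher, with a median of 0.15. Permutation library medians were 0.043 for 2xHAR.164, 0.17 for 2xHAR.170, −0.070 for 2xHAR.142 and 0.14 for 2xHAR.238.

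**Figure D3:**
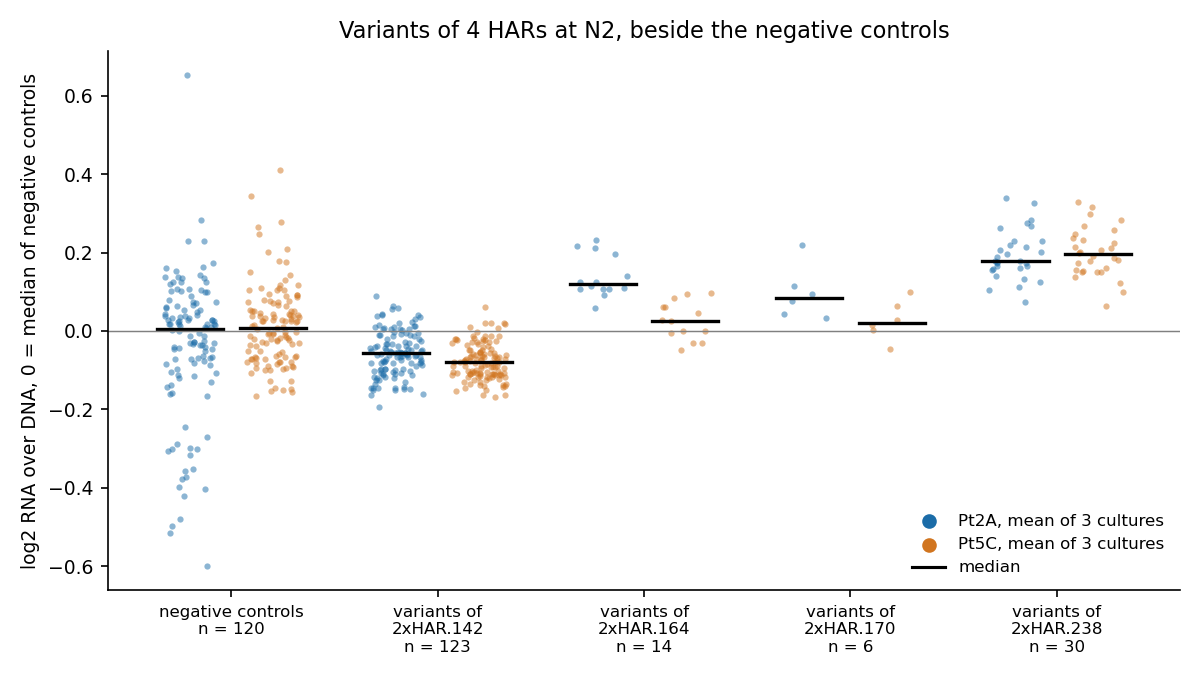
Activity (vertical axis, log2 RNA over DNA) of the variants of 4 HARs beside the negative controls, 1 point per element as the mean of 3 cultures, in Pt2A (blue) and Pt5C (orange), with a black line at the median. All 30 variants of 2xHAR.238 lie above 0 in both lines, most of 2xHAR.142 lie below it, and each set is narrower than the negative controls.

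The alleles from which these variants derive fell in the same place. 2xHAR.142 (chromosome 14, 34048648 to 34048818) lies in an intron of NPAS3, which encodes a transcription factor of neurons. Its human allele was at −0.12, −0.10 and −0.090 in Pt2A and −0.087, −0.12 and −0.11 in Pt5C, and its chimpanzee allele at −0.089 ± 0.047 and −0.12 ± 0.0077. All 4 were called lower by both tests, over N3 DNA as well. In the HAR control library the human allele was at −0.25 ± 0.021 and the chimpanzee allele at −0.22 ± 0.029. Both carry a base changed by design at an EcoRI site, as 117 of the 2002 HAR alleles do at a restriction site.

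The human tiles of 2xHAR.238 (chromosome 2, 121832888 to 121833059), which differ by 1 base in position, were at 0.26 ± 0.041 and 0.23 ± 0.044 in Pt2A and 0.36 ± 0.13 and 0.31 ± 0.10 in Pt5C. The chimpanzee sequence was at 0.15 ± 0.011 and 0.16 ± 0.048. All were called higher in both lines. With N3 DNA the human tiles kept their calls (0.18 and 0.14 in Pt2A, 0.33 and 0.32 in Pt5C). The chimpanzee sequence lost its own (−0.0077 and 0.062). In the HAR control library the human tiles were at 0.39 ± 0.045 and 0.41 ± 0.023, and the chimpanzee sequence at 0.25 ± 0.037.

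2xHAR.20, near the homeobox gene EN1, was covered by 4 tiles (chromosome 2, 119067166 to 119067744). Activity was highest in tile 4 (119067574 to 119067744), at 0.18 ± 0.037 in Pt2A and 0.37 ± 0.14 in Pt5C for human and 0.0069 ± 0.053 and 0.25 ± 0.15 for chimpanzee. The chimpanzee tile 4 was called in Pt5C and not in Pt2A, and its difference between lines was 0.25 with an error of 0.049 (adjusted p = 0.000117, edgeR). Tile 1 was called lower in Pt2A for human (−0.14 ± 0.042) and in both lines for chimpanzee (−0.19 ± 0.035 and −0.076 ± 0.045), of which only the chimpanzee call in Pt2A was kept over N3 DNA. Without Pt5C replicate 3 the chimpanzee value in Pt5C was −0.054 in place of −0.082. In the HAR control library tile 1 lay above 0, at 0.072 ± 0.064 and 0.036 ± 0.047. The tiles in between ran from −0.19 to 0.19. A single HAR thus held called elements on both sides of 0, and tile 4 reached 1.15 ± 0.045 (human) and 1.08 ± 0.022 (chimpanzee) in the HAR control library.

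Overlap between tiles went with likeness of activity. Of neighbouring tiles of the same allele, 117 pairs shared at least 150 bases, and their activities correlated at r = 0.75 in Pt2A and 0.63 in Pt5C. For 274 pairs that shared at least 50 and under 150 bases r was 0.16 and 0.33, and for 108 pairs that shared fewer it was −0.0059 and 0.085. With N3 DNA the pairs of most overlap reached 0.80 and 0.75. For 791 pairs of human and chimpanzee alleles at the same position r was 0.79 and 0.77, with a median difference of 0.062 and 0.058 in size. Pairs come from the same libraries and share DNA depth and most of their bases, so these values are descriptions. Of the 184 allele pairs with at least 1 allele called higher in Pt5C, 71 had both called, and of the 131 in Pt2A, 35.

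The lines were then compared directly with the edgeR contrast of RNA over DNA. Pt5C exceeded Pt2A in 762 elements (31.2%) and Pt2A exceeded Pt5C in 567 (23.2%), and in 1516 (62.1%), called or not, the 3 values of one line all lay above those of the other. With the summed N2 DNA of the line in place of the same-numbered library this was so in 1763. With N3 DNA 458 (18.8%) and 241 (9.88%) were called, 699 in all (28.6%). Of the 1329 calls (54.5%) over N2 DNA, 484 were kept in the same direction, 192 changed sign and 11 were called the opposite way. By both tests over N2 DNA, 93 elements were called lower in Pt2A and higher in Pt5C and 0 the other way round, while edgeR alone gave 229 and 50. Over N3 DNA these numbers by both tests were 1 and 2.

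**Figure D4:**
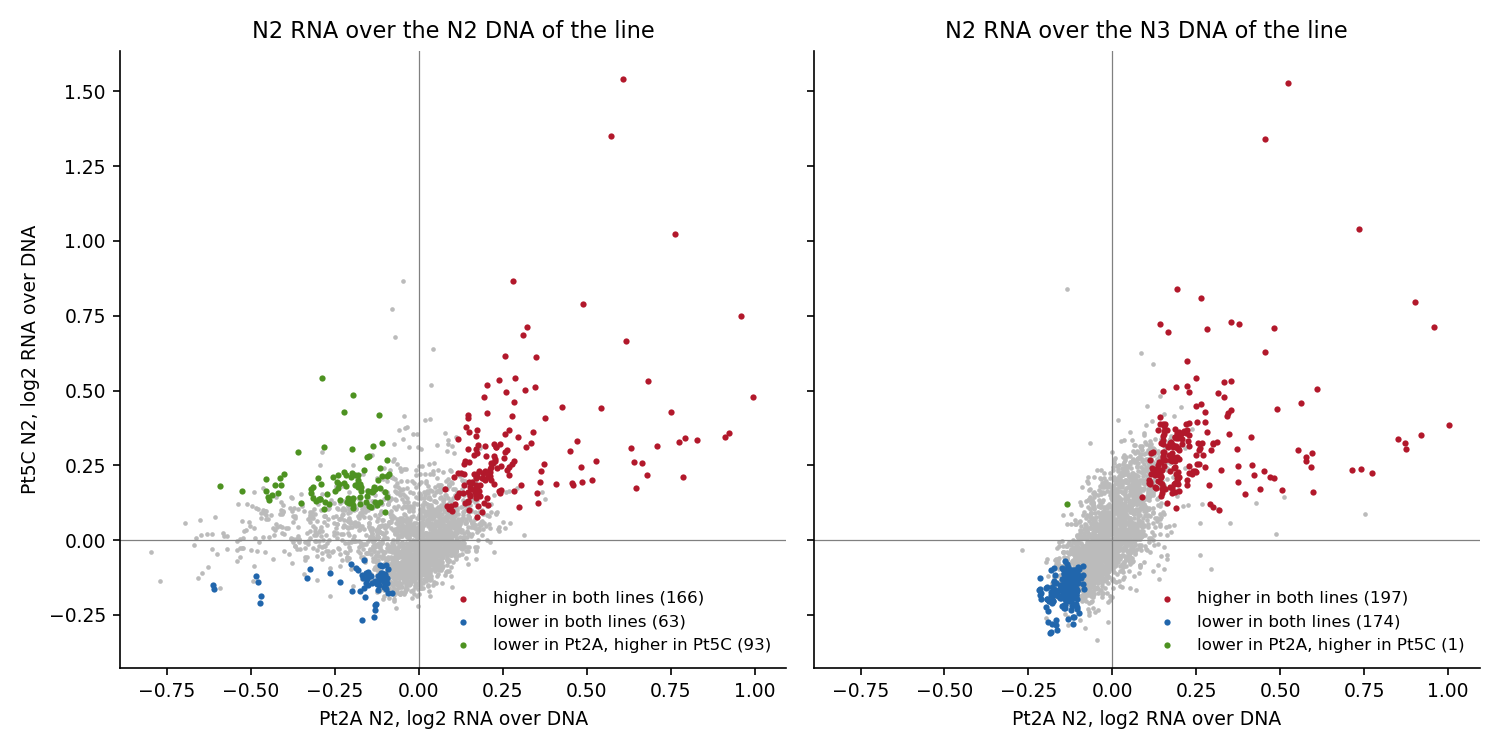
Activity of each element in Pt2A (horizontal axis) against Pt5C (vertical axis), as fitted log2 RNA over DNA, over the N2 DNA (left) and the N3 DNA (right) of each line, with calls by both tests in colour. Over N2 DNA 93 elements are lower in Pt2A and higher in Pt5C (green), and over N3 DNA 1 is, while those lower in both lines number 63 and 174.

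Elements whose lines differed over either DNA included both alleles of HAR156, higher in Pt5C by 0.93 for chimpanzee and 0.78 for human (errors 0.13 and 0.12, adjusted p = 9.22e-07 and 5.07e-06, edgeR). H3K27ac positive control 104 (chromosome 5, 107273101 to 107273271) was at −0.064, −0.013 and −0.046 in Pt2A and at 1.01, 1.05 and 0.48 in Pt5C, a difference of 0.91. The human allele of 2xHAR.183 (chromosome 2, 11531871 to 11532041) was at −0.074 ± 0.059 and 0.77 ± 0.32, a difference of 0.85 that was 0.65 over N3 DNA. The chimpanzee allele of HAR125 (chromosome 7, 37026137 to 37026307) was called lower in Pt2A (−0.28 ± 0.076) and higher in Pt5C (0.55 ± 0.29). Its difference was 0.83, and 0.53 over N3 DNA, where its Pt2A activity was 0.16.

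Higher in Pt2A were human tile 2 of 2xHAR.267 (Pt5C minus Pt2A −0.58), the chimpanzee tile 2 of the same HAR (−0.57), human tiles 2 and 1 of 2xHAR.403 (−0.56 and −0.49) and human 2xHAR.279 (−0.52). Their adjusted p over N2 DNA ran from 6.76e-08 to 1.59e-06, and their differences over N3 DNA from −0.67 to −0.55. Without Pt5C N2 replicate 3 the 10 differences kept their signs, and that of HAR156 chimpanzee was 1.13 and that of 2xHAR.279 human −0.64. For human tile 2 of 2xHAR.267 the fitted Pt5C activity without that culture was 0.057 in place of 0.21 and was no longer called by edgeR (adjusted p = 0.158). The HAR control library was read in the same line and stage as Pt2A N2. In 9 of the 10 elements the gap between these readings of Pt2A was larger than the difference between lines. The gap was 1.67 for HAR125 (1.39 against −0.28), 1.48 for HAR156 chimpanzee (2.09 against 0.61), 1.42 for 2xHAR.183 and 1.12 for 2xHAR.267 chimpanzee tile 2. The exception was H3K27ac positive control 104, with 0.16 (0.12 against −0.041). In the permutation library, also read in Pt2A N2 but with other barcodes, control 104 stood at 0.54 ± 0.070. The part of the DNA deviation of Pt2A in these differences was not tested beyond the values over N3 DNA.

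The calls were last set beside those of the HAR control library, where edgeR called 51.7% of elements higher and 34.5% lower. Of the 416 elements called higher in Pt5C N2, 98.1% were higher there, and of the 300 called lower, 93.7% were lower. Of the 311 called higher in Pt2A N2, 69.1% were higher and 16.7% lower. Of the 545 called lower in Pt2A N2, 14.3% were lower and 79.8% higher. Over N3 DNA the Pt2A lists were 236 and 242 elements long, with 90.3% of the former higher and 78.5% of the latter lower in the control library. Of the elements called in both lines, 95.2% of the 166 higher ones were higher there, with a median of 0.35, and 85.7% of the 63 lower ones were lower, with a median of −0.17. The median of all elements was 0.062. In the permutation library, which shares 438 elements and 0 barcodes, 64 of the 82 shared elements called higher in Pt2A N2 were also called higher and 71 of 85 lower, where 27.9% and 33.1% of the shared elements were called. Both readings divide RNA by Pt2A N2 DNA of their own libraries, and no such count over N3 DNA is given.

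**Figure D5:**
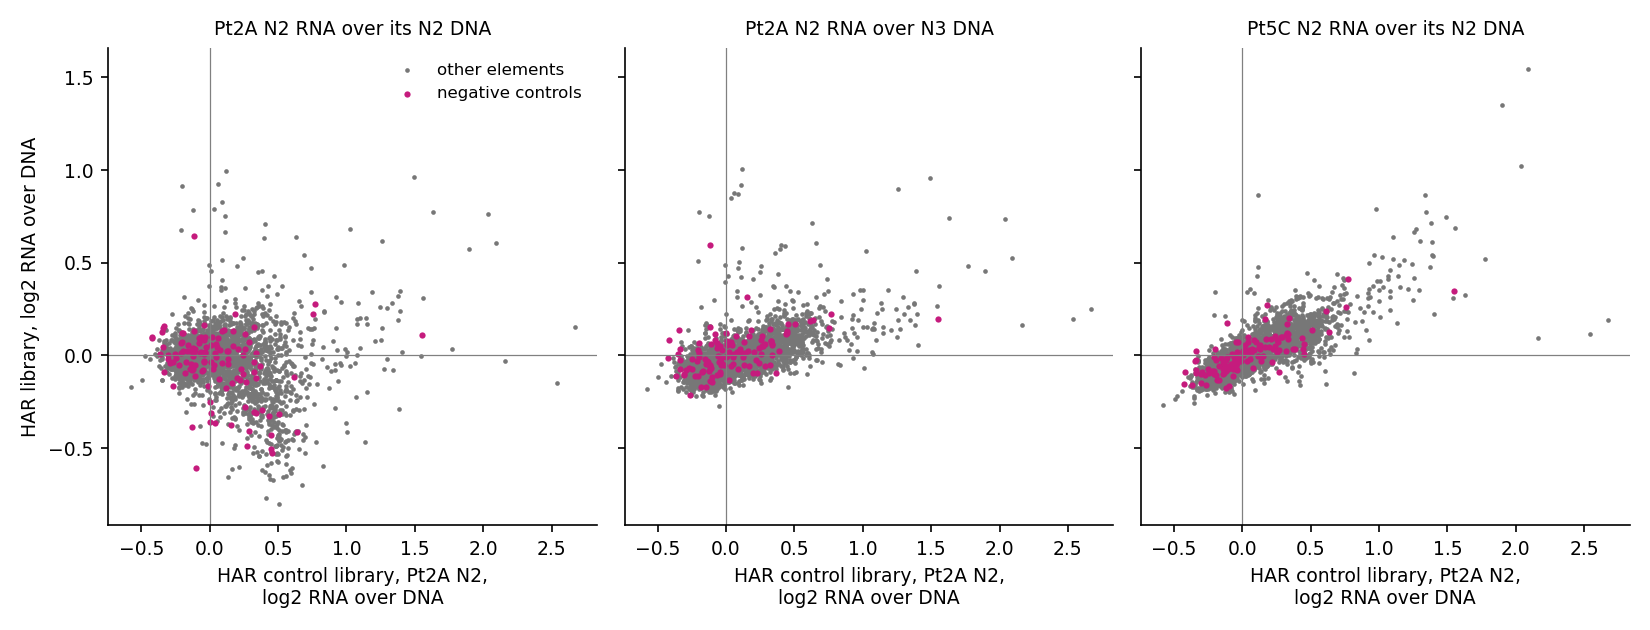
Fitted log2 RNA over DNA in the HAR library (vertical axes) against the mean of 3 cultures in the HAR control library of Pt2A N2 (horizontal axes), 1 point per element with negative controls in pink, for Pt2A over its N2 DNA (left), Pt2A over N3 DNA (middle) and Pt5C over its N2 DNA (right). Of the 501 elements at 0.3 to 0.7 in the control library, 344 lie below 0 on the left, 69 in the middle panel and 36 on the right.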

How the data were processed

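The authors deposited, for each library, a whole-number count for every 15-base barcode, listed under the element's name. A 10-base tag for single molecules entered at the PCR, per the labels' protocols. No source used here says whether tags or reads were counted, or with which tool. Element names give human coordinates, and the submitters' processing notes name GRCh37. Counts were summed per element. Elements needed a mean of 10 barcodes and filterByExpr, which removed 0. edgeR 4.0.16 (R 4.3.3, TMM) fitted all 24 HAR libraries with 1 coefficient per line, stage and molecule, and p-values were two-sided and Benjamini-Hochberg adjusted over 2440 elements. The barcode test used a linearised standard error over barcodes, cultures scaled to equal depth. On simulated data edgeR called 70%, 98% and 100% of true log2 changes of 0.1, 0.2 and 0.5. The barcode test called 0%, 20% and 92%. Of elements without a change they called 0.625% and 0.714%. The spread between barcodes in the simulation was set in advance, not fitted to these data, and wider than in them. Unchanged elements there had a median absolute estimate of 0.075, beside a median barcode error of 0.047 in Pt2A. The simulated rates of the barcode test therefore do not give its rates here. The edgeR simulation held no deviation of the N2 DNA. Activity per culture divided each RNA library by the DNA library of the same number. RNA and DNA were extracted jointly per the labels, which do not tie the numbers to a culture, so an alternative used the summed DNA of the line. Shares of barcodes above the control median used barcodes with 10 or more summed DNA counts. Members and lists were chosen with earlier results of these data known. The text names, by the mean over 6 cultures, the 12 highest and 6 lowest among HAR elements called in both lines, the 3 highest and 2 lowest positive and negative controls, the 5 largest line differences per direction that do not overlap and hold over N3 DNA, all alleles of 2xHAR.142, 2xHAR.20 and 2xHAR.238, and the 3 largest shifts per direction with N3 DNA. No gene annotation of GRCh37 and no element sequence was used here. Alternatives included DESeq2 1.42.0. Python 3.11.15, numpy 2.4.6, pandas 2.3.3, scipy 1.17.1 and matplotlib 3.10.9 did the rest.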

Additional observations from a re-analysis of the deposited data

Results flagged for a closer look

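The effect of line differed by the edgeR contrast itself, over either denominator, in the 10 named elements. As Pt5C minus Pt2A the differences were 0.93 for HAR156 chimpanzee, 0.91 for H3K27ac positive control 104, 0.85 for 2xHAR.183 human, 0.83 for HAR125 chimpanzee and 0.78 for HAR156 human. They were −0.58 for 2xHAR.267 human tile 2, −0.57 for 2xHAR.267 chimpanzee tile 2, −0.56 for 2xHAR.403 human tile 2, −0.52 for 2xHAR.279 human and −0.49 for 2xHAR.403 human tile 1. Each line is 1 animal, so line and animal cannot be told apart. Groups of 3 cultures are too small for a check of single outlying samples.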

How the results depend on the processing

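With a threshold of 1.2-fold (glmTreat) the counts were 40 higher and 124 lower in Pt2A, 50 and 0 in Pt5C, and 188 higher in Pt5C and 12 higher in Pt2A between lines. By the barcode test alone they were 312 and 545 in Pt2A and 418 and 301 in Pt5C. Over N3 DNA the line counts were 458 and 241, the barcode test gave 244 lower in Pt2A and 642 and 491 in Pt5C, and 174 were lower in both lines. Class differences changed sign over N3 DNA for human (−0.0022) and chimpanzee alleles (−0.0037), and with class means for HAR variants (0.0069). With class means human alleles (0.018), chimpanzee alleles (0.017), H3K27ac (0.061), ENCODE (0.084) and short-named positive controls (0.12) passed the threshold. Over N3 DNA the Pt2A activity of these named elements changed sign: 2xHAR.238 chimpanzee −0.0077, HAR125 chimpanzee 0.16, 2xHAR.424 human tile 2 −0.022, 2xHAR.48 human tile 3 −0.12, 2xHAR.494 chimpanzee −0.10, 2xHAR.20 chimpanzee tile 3 0.072, ENCODE negative control 20 0.051, H3K27ac positive control 101 0.11, 2xHAR.144 chimpanzee tile 2 0.17, 2xHAR.446 chimpanzee 0.0016, 2xHAR.510 human 0.082, 2xHAR.118 chimpanzee 0.14 and human 0.099. The line difference changed sign for 2xHAR.424 human tile 2 (0.098), 2xHAR.494 chimpanzee (0.085), ENCODE negative control 20 (−0.084), 2xHAR.446 (−0.028), 2xHAR.50 (−0.080), 2xHAR.510 (−0.17), 2xHAR.317 (−0.092), 2xHAR.141 (−0.00094) and 2xHAR.118 chimpanzee (−0.022) and human (−0.0035). The cause was not tested.

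Without 1 culture the counts ran from 526 to 723 higher and 646 to 873 lower in Pt2A, 591 to 903 and 464 to 676 in Pt5C, and 669 to 864 higher in Pt5C and 359 to 651 higher in Pt2A between lines. With the barcode test they ran from 288 to 331 and 465 to 560 in Pt2A, and 318 to 563 and 190 to 321 in Pt5C, and 152 to 168 were higher and 51 to 61 lower in both lines. The counts of 359 and 190 came without Pt5C N2 replicate 1. Class differences then ran from 0.0015 to 0.0099 for human alleles, 0.0024 to 0.010 for chimpanzee alleles, −0.046 to −0.033 for HAR variants, 0.023 to 0.026 for H3K27ac, 0.043 to 0.068 for ENCODE, 0.0086 to 0.020 for EnhancerFinder and 0.078 to 0.12 for short-named positive controls, where 5 cultures allow no p under 0.0625 (exact permutation test). Same-numbered RNA and DNA libraries did not deviate together (r from −0.14 to 0.080), so the numbers are not shown to mark a shared culture. Values per culture still divide by the DNA library of the same number. With the summed N2 DNA of the line instead, an alternative chosen after the data were seen, no class difference changed sign or passed the threshold (adjusted p from 0.0547 to 0.469, exact permutation test), and that of EnhancerFinder positive controls was 0.0033 in place of 0.012. With the replicate block the counts were 658 and 796 in Pt2A, 749 and 655 in Pt5C, and 749 and 563 between lines, all within 1.5 times. Other fits (DESeq2, the TMM centre as zero point, N2 libraries alone, barcode filters and removal of the strongest barcode) moved no count by over 1.5 times. Of the 153 edgeR values of named elements (each line and the difference), 19 fell short of the threshold and 12 came to pass it over N3 DNA without a change of sign, 59 fell short with the 1.2-fold threshold, and 13 came to pass it without Pt5C N2 replicate 3. The error from counting depth alone was not measured per element.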
